A study of Gallus gallus with 48 samples.

Results

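6 chicks wore a -15 diopter (D) spectacle lens over 1 eye for 6 hours, and the lens eye of each bird was compared with its open fellow eye. The birds were found by the duration and the bird number in the sample titles, are called birds 1 to 6 here after the order of those numbers, and gave 12 of the 48 arrays of the series. All birds were White Leghorn chicks, raised in 12 hours of light per day, and the lens was put on at 1 week of age. The tissue was neural retina together with retinal pigment epithelium (RPE), 1 array per eye. Lens eyes after 6 hours of -15 D were therefore set against untreated fellow eyes of the same birds (6 each). Birds that wore a +15 D lens for 6 hours and birds that wore a -15 D lens for 3 days, 6 of each, supplied lens-minus-fellow differences for comparison. A fellow eye shares the animal, and thus the circulation, with the eye behind the lens, so it is a within-animal control and not an untreated bird. Which eye wore the lens, the sex of the birds and the time of day at collection were not given in the sources used here.

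A negative lens places the plane of sharp focus behind the photoreceptors, and the growing chick eye answers within days by elongating. The retina detects the defocus locally and passes signals through the RPE and choroid to the sclera, the outer coat whose growth sets eye length. Amacrine cells, the interneurons of the inner retina, release peptides such as glucagon, enkephalin and vasoactive intestinal peptide that have long been studied in this response, as have dopamine, retinoic acid and the bone morphogenetic proteins (BMPs) of the RPE. Many of these peptides act through receptors that raise or lower cyclic AMP, which adenylyl cyclases make and phosphodiesterases break down.

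Values are log2 signals of probe sets on the Affymetrix Chicken array, and a difference of 1 is a 2-fold difference. Cone and Muller glia markers of the labelled tissue were bright in every eye. The means of the 4 cone markers lay between 11.9 and 12.4 in lens eyes and between 12.1 and 12.3 in control eyes, and the 4 Muller glia markers lay between 11.8 and 12.0 in lens eyes and between 11.7 and 11.9 in control eyes. Background, taken as the 95th percentile of the probe sets for viral sequences, was 4.50. The means of the 3 rod markers were lower, from 8.25 to 8.48 in lens eyes and 8.08 to 8.61 in control eyes. The pigment epithelium markers ranged more widely, from 8.48 to 11.03 in lens eyes and 8.33 to 10.1 in control eyes. Among these, BEST1 was dim, from 5.28 to 7.43 in lens eyes and 4.81 to 6.04 in control eyes.

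Bird 3 stood apart from the others. The standard deviation (SD) of its lens-minus-control differences over all genes was 0.76, against 0.48 in bird 5, 0.31 in bird 4, 0.24 in bird 1 and 0.19 in birds 2 and 6. In bird 3, 941 genes were more than 1 log2 unit higher in the lens eye and 26 were lower, whereas in bird 5 these counts were 2 and 349. The 10 genes furthest above the control eye in bird 3 included CDH5, the cadherin of endothelial junctions, DCN, a proteoglycan of connective tissue, OGN and COL4A1, a basement membrane collagen. CDH5 stood at 11.5 in its lens eye and 3.87 in its control eye, and DCN at 11.1 and 3.32 in the same order. Of the 10 genes furthest below it, 8 were crystallins and other lens genes, led by CRYBA2 at 5.14 in the lens eye and 12.0 in the control eye.

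The mean of 6 vessel markers was 9.74 in the lens eye and 5.95 in the control eye of bird 3, 7.87 and 5.87 in bird 4, and 7.14 and 6.20 in bird 1. Birds 2, 5 and 6 had the opposite order, with the widest gap in bird 5, at 6.35 in its lens eye and 8.35 in its control eye. The 6 markers of choroid and sclera were furthest apart in the same bird, with 9.57 in the lens eye of bird 3 against 4.42 in its control eye. Ocular lens markers were near 5.7 in all lens eyes, from 5.60 to 5.81, but reached 9.67 in the control eye of bird 3 and 13.3 in that of bird 5. In bulk tissue, a smaller number of cells of a type and less RNA in each of them cannot be told apart. Where leaving out bird 3 changed a call, turned a direction or moved a gene's mean by over 1.5 times, the value without it is given.

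**Figure D1:**
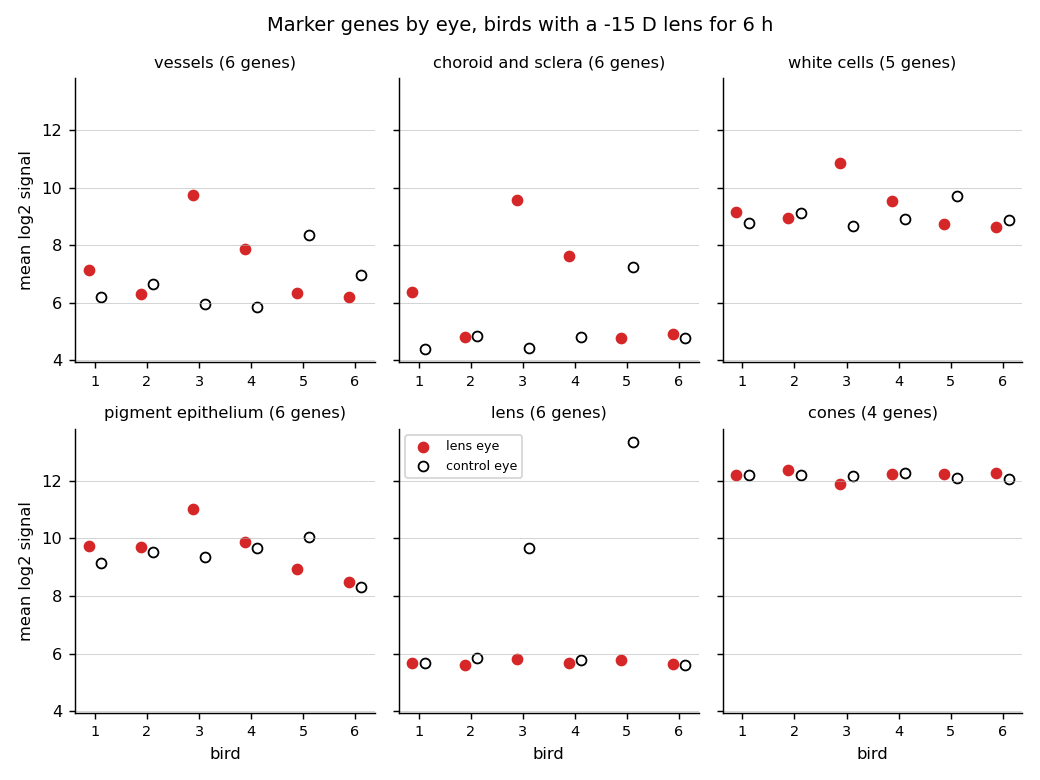
Mean log2 signal of marker genes (vertical axis) in each bird (horizontal axis), with the lens eye as a filled red point and the control eye as an open point. Cone markers lie between 11.9 and 12.4 in all eyes, whereas vessel and choroid markers are highest in the lens eye of bird 3 (9.74 and 9.57) and lens markers in the control eye of bird 5 (13.3).

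The actin control probe sets gave a further difference between the eyes. The log2 ratio of the 3′ to the 5′ actin signal, which rises as RNA is degraded or copied incompletely, was lower in the lens eye of 6 of 6 birds, by -0.16 ± 0.20 (SD, n = 6; two-sided exact sign-flip permutation p = 0.03125, the smallest that 6 birds allow). It was lowest in bird 3, at -0.53. The GAPDH ratio differed by 0.02 ± 0.07 (SD, n = 6; exact permutation p = 0.469).

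Most of what passed the test was lower in the lens eye. Limma fitted to the within-bird differences called 15 of 38382 probe sets at an adjusted p under 0.05, which is 0.0391% of those tested, and 14 of the 15 were lower behind the lens. They named 12 genes. VIP, SNAP25, UNC13A, RAB3GAP2, GRM5, ADCY1, PDE3A, EPHB6, TRAF3, SCAF11 and MYO3A fell, NOG rose, and 3 further probe sets that fell had no gene name in the annotation. Of the 15, 14 had the same sign in 6 of 6 birds. At an unadjusted p under 0.05 there were 3885 probe sets. With 1 probe set per gene, 661 of 13009 genes (5.08%) were lower in the lens eye of every bird and 324 (2.49%) were higher in every bird.

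The number called depended on single birds and on the spread of the other conditions. When only these 6 birds gave the spread, none of the 15 passed (limma adjusted p between 0.287 and 0.325, with 0.287 for VIP). With the spread of all conditions, the count was 0 without bird 3, with 2849 at unadjusted p under 0.05, 1 without bird 1, 2 without bird 4, 2 without bird 5, 8 without bird 6 and 16 without bird 2. The adjusted p of the 15 lay between 0.0503 and 0.274 without bird 3. None of the 15 changed sign without bird 3 or under any other setting that was run. For the 14 with the same sign in every bird, leaving birds out could not turn it. Settings that alter only the spread keep the mean. The lack of sign changes is therefore no separate support. With the mean differences of the vessel and lens lists as covariates, 1 probe set was called, that of VIP, and with the actin ratio as a covariate the 1 call was again VIP.

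**Figure D2:**
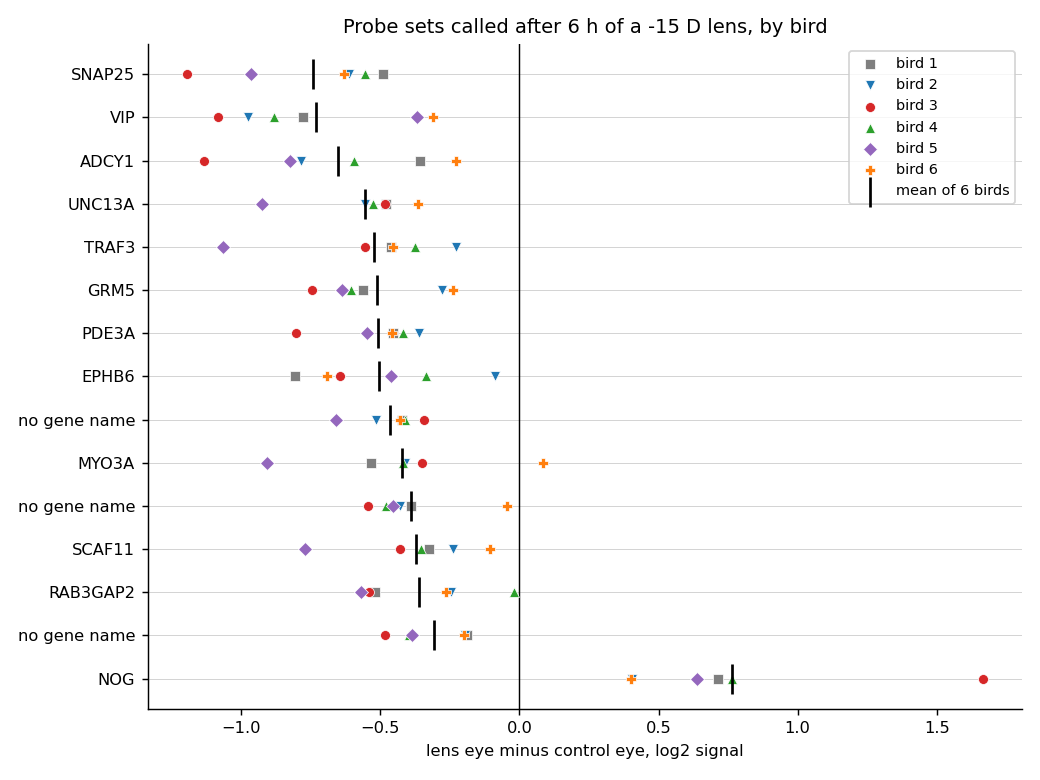
Lens-minus-control difference in log2 signal (horizontal axis) of the 15 probe sets that passed the test, 1 row each, with 1 symbol per bird and a black bar at the mean of 6 birds. All symbols lie left of 0 for 13 probe sets, MYO3A has bird 6 at 0.09, and NOG lies right of 0 in every bird with bird 3 furthest out at 1.67.

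VIP, the vasoactive intestinal peptide of a class of amacrine cells, had the lowest p of all probe sets. Its lowest, median and highest signals were 9.37, 9.78 and 10.3 in lens eyes, against 9.74, 10.6 and 11.1 in control eyes. The ranges overlapped between birds, but within each bird the lens eye was the lower. The differences in birds 1 to 6 were -0.78, -0.97, -1.08, -0.88, -0.37 and -0.31. SE here and below comes from the fit, whose spread is shared by all 24 birds. Over the 6 birds alone the differences had an SD of 0.32. The mean was -0.73 ± 0.10 (SE, n = 6), so signal in the lens eye was 0.602 times that of the control eye (limma adjusted p = 0.00358). Without bird 3 it was -0.66 (limma adjusted p = 0.0503). With the vessel and lens lists as covariates it was -0.70 (limma adjusted p = 0.0172), and with the actin ratio it was -0.65 (limma adjusted p = 0.00523). The array carried 1 probe set for this gene.

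Other peptides of the retina did not pass. UTS2B, a peptide of the urotensin family, was lower in 6 of 6 lens eyes, with a mean of -0.55 ± 0.45 (SD, n = 6; limma adjusted p = 0.117). Its signal ran from 7.18 to 7.89 in lens eyes and from 7.78 to 8.60 in control eyes. Preproglucagon (GCG) was lower in 5 of 6 birds, by -0.20 ± 0.20 (SD), and enkephalin (PENK) differed by 0.02 ± 0.17 (SD), and by 0.06 without bird 3. Of the 28 peptide genes measured, VIP and UTS2B were the 2 that were lower in every bird, 7.14% beside 5.08% of all genes. None was higher in every bird, beside 2.49% of all genes. Among 34 peptide receptors, ADCYAP1R1, the receptor of the VIP relative PACAP, had the lowest p, with a difference of -0.32 ± 0.26 (SD, n = 6), lower in 5 of 6 birds (limma adjusted p = 0.14). GCGR, the glucagon receptor, was higher in 6 of 6 lens eyes, at 0.41 ± 0.49 (SD), of which bird 3 gave 1.37, and at 0.22 without that bird. It was the 1 such member of the receptor list, 2.94% beside 2.49% of all genes.

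**Figure D3:**
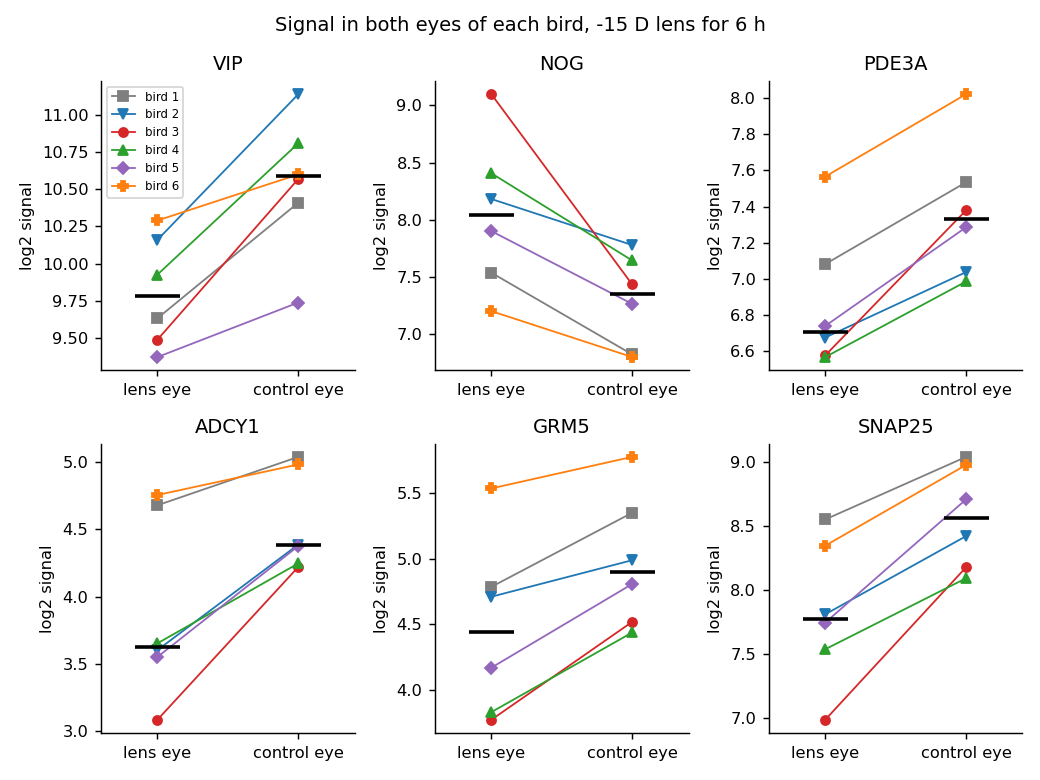
Log2 signal of 6 of the genes that passed the test (vertical axes, each with its own range) in the lens eye and the control eye of each bird, joined by a line, with black bars at the medians. Every line for VIP, PDE3A, ADCY1, GRM5 and SNAP25 slopes up to the control eye and every line for NOG slopes down to it. For each of these genes some lens eye lies within the range of the control eyes.

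Enzymes of cyclic nucleotide turnover were among the genes that fell. ADCY1 is an adenylyl cyclase that calcium and calmodulin activate. Its called probe set read 3.09, 3.63 and 4.75 (lowest, median, highest) in lens eyes and 4.22, 4.38 and 5.04 in control eyes. The difference was -0.65 ± 0.11 (SE, n = 6; limma adjusted p = 0.0293), and -0.56 without bird 3. These signals are close to background, and the mean over all arrays is below it, but all 7 probe sets for ADCY1 were lower on average behind the lens and 6 of them had an unadjusted p under 0.05. The brightest, at 8.96 to 10.3 in lens eyes and 10.02 to 10.47 in control eyes, differed by -0.40 ± 0.34 (SD, n = 6; limma adjusted p = 0.0615). Bird 3 was at -1.06 there, and the mean was -0.26 without it.

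PDE3A, a phosphodiesterase that degrades cyclic AMP and is inhibited by cyclic GMP, was lower by 2 separate probe sets. The called probe set read 6.57, 6.71 and 7.57 in lens eyes and 6.99, 7.33 and 8.02 in control eyes (lowest, median, highest), a difference of -0.51 ± 0.09 (SE, n = 6; limma adjusted p = 0.0293) and of -0.45 without bird 3. Its brighter probe set lay between 7.59 and 7.90 in lens eyes and between 7.89 and 8.22 in control eyes. There the differences of the 6 birds lay between -0.40 and -0.20, with a mean of -0.31 ± 0.06 (SD, n = 6; limma adjusted p = 0.0595), and bird 3, at -0.31, did not stand out.

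The families around these enzymes had medians below that of all genes. The median difference was -0.08 over 15 phosphodiesterases and -0.10 over 13 cyclases, beside 0.01 over all 13009 genes. Without bird 3 the medians were -0.10 and -0.09. The phosphodiesterase median was below 0 in each of the 6 birds. PDE11A, PDE1C, PDE3A and PDE8B were lower in every bird, 4 of 15 against 5.08% of all genes, and no member was higher in every bird. The count includes PDE3A, a gene called in these same data. PDE10A and PDE4D were lower in 5 of 6 birds, by -0.17 ± 0.17 and -0.16 ± 0.17 (SD, n = 6 each), and without bird 3 PDE4D was at -0.10. ADCY1 and ADCY2 were the cyclases lower in every bird, 15.4% of the 13 beside 5.08% of all genes, and ADCY1 is likewise a called gene. The 32 kinases and anchors that cyclic AMP and calcium act on had a median of -0.01 that was 0.02 without bird 3. AKAP9, a scaffold for protein kinase A, was the 1 member lower in every bird, at -0.26 ± 0.17 (SD; limma adjusted p = 0.138). CAMK1 was the 1 member higher in every bird (3.12% each, beside 5.08% and 2.49% of all genes). The phosphodiesterases also include those of rods and cones, whose genes are described with the photoreceptors.

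Genes of transmitter release included 3 that fell, but mostly by their dimmer probe sets. SNAP25 is a membrane protein of nerve terminals on which the fusion of synaptic vesicles depends. A probe set of middling signal for SNAP25 read 6.98, 7.77 and 8.55 in lens eyes and 8.09, 8.56 and 9.04 in control eyes (lowest, median, highest). Its difference was -0.74 ± 0.13 (SE, n = 6; limma adjusted p = 0.0293), and -0.65 without bird 3. Another probe set of similar signal differed by -0.63 (limma adjusted p = 0.064). The other 5 probe sets for SNAP25 had mean signals above 12 in both eyes and differed by -0.05 to -0.02, and by -0.01 to 0.06 without bird 3. The array annotation does not say which transcripts of the gene each probe set reads.

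UNC13A, which primes vesicles for fusion, had 5 probe sets, of which 3 were lower in 6 of 6 birds. The called one was dim, at 3.83, 3.91 and 4.92 in lens eyes and 4.31, 4.65 and 5.28 in control eyes (lowest, median, highest). It differed by -0.55 ± 0.10 (SE, n = 6; limma adjusted p = 0.0489), and by -0.57 without bird 3. Of the others, 2 lay near 0, at 0.02 and -0.0036, and at 0.08 and 0.02 without bird 3. RAB3GAP2 belongs to the complex that switches off the vesicle protein RAB3. Its called probe set averaged 6.52 in lens eyes and 6.88 in control eyes, a difference of -0.36 ± 0.06 (SE, n = 6; limma adjusted p = 0.0293), and of -0.32 without bird 3 (limma adjusted p = 0.207). Its brightest probe set, at 10.4 in lens eyes and 10.5 in control eyes, differed by -0.19 and was lower in 4 of 6 birds. The remaining ones of its 4 probe sets differed by -0.08 and -0.20, lower in 3 and in 4 of 6 birds.

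Across the release machinery, bird 3 carried most of the shift. The 21 fusion proteins had a median of -0.04 with it and -0.0010 without it, and the 21 genes of the vesicle pool and active zone had -0.05 and -0.0055. In the vesicle pool list, RIMBP2, which ties calcium channels to the release site, was lower in 6 of 6 birds at -0.49 ± 0.41 (SD, n = 6; limma adjusted p = 0.114), and at -0.36 without bird 3. It was the 1 member lower in every bird, and RIMS1 was the 1 member higher in every bird (4.76% each, beside 5.08% and 2.49% of all genes). PCLO, a scaffold of the active zone, was lower in 5 of 6 at -0.41 ± 0.30 (SD; limma adjusted p = 0.12). In bird 3 alone the medians of these lists were -0.28 and -0.32, beside a mean difference of 3.47 over the vessel list in the same bird. Of 30 adhesion proteins of synapses, CNTN3, NLGN1 and NLGN4Y were lower in every bird and SLITRK2 was higher in every bird, beside 5.08% and 2.49% of all genes, and the median of -0.04 was 0.03 without bird 3.

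Glutamate receptors gave 1 fall and several smaller differences of the same sign. GRM5, a receptor that couples glutamate to calcium release, read 3.77, 4.44 and 5.54 in lens eyes and 4.44, 4.90 and 5.78 in control eyes (lowest, median, highest) by its called probe set. The difference was -0.51 ± 0.09 (SE, n = 6; limma adjusted p = 0.0293), and -0.46 without bird 3. Its brightest probe set, near 8, was also lower in 6 of 6 birds, by -0.31 ± 0.20 (SD; limma adjusted p = 0.197). All 3 probe sets for this gene were lower at an unadjusted p under 0.05.

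Of the 13 ionotropic subunits, 11 had a mean below 0, beside 5883 of all 13009 genes. Among these subunits 4 were lower in every bird, beside 5.08% of all genes. These were GRIN2A, a subunit of NMDA receptors, GRIA4 of AMPA receptors, GRIK2 of kainate receptors and GRID1 of the delta family. GRIN2A differed by -0.37 ± 0.24 (SD, n = 6; limma adjusted p = 0.109) and by -0.29 without bird 3. GRIA4 differed by -0.31 ± 0.23 and GRIK2 by -0.28 ± 0.28 (SD), which was -0.18 without bird 3. The median of the list was -0.09, and -0.06 without bird 3, in which it was -0.58. The 21 receptors for GABA and glycine had a median of -0.08 that was -0.0012 without bird 3.

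Channel families also had medians below 0 that were nearer to 0 without bird 3. The 15 calcium channel genes had a median of -0.09 with bird 3 and -0.03 without it, the 10 sodium channel genes -0.07 and -0.02, and the 69 potassium channel genes -0.02 and 0.0037. KCNMA1, the calcium-activated channel of large conductance, was lower in 6 of 6 birds by -0.20 ± 0.18 (SD, n = 6; limma adjusted p = 0.131). Its differences without bird 3 averaged -0.13. Of the 69 potassium channel genes it was 1 of 4 lower in every bird, 5.8% beside 5.08% of all genes. CACNA1D, a calcium channel of photoreceptor terminals, was lower in 6 of 6 birds at -0.22 ± 0.27 (SD), of which bird 3 gave -0.73, and at -0.11 without that bird. It was the 1 such member of the 15 calcium channel genes, 6.67% beside 5.08% of all genes.

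NOG was the 1 gene that rose. It encodes noggin, a secreted protein that binds BMPs and keeps them from their receptors. Its signal was 7.20, 8.04 and 9.10 in lens eyes, against 6.80, 7.35 and 7.78 in control eyes (lowest, median, highest). The differences in birds 1 to 6 were 0.71, 0.40, 1.67, 0.76, 0.64 and 0.40. The lens eye was the higher in all 6 birds, although the ranges of the eyes overlapped. Over the 6 birds alone the differences had an SD of 0.47. The mean was 0.76 ± 0.13 (SE from the fit, n = 6), or 1.7-fold (limma adjusted p = 0.0293). Without bird 3 it was 0.58 and did not pass (limma adjusted p = 0.207). The array carried 1 probe set for this gene.

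Among the BMP ligands themselves, BMP2 had the mean furthest below 0 of the 17 genes picked for their study in chick eye growth. Its lowest, median and highest signals were 8.29, 8.48 and 9.48 in lens eyes and 8.71, 9.56 and 10.2 in control eyes. Birds 1 to 5 had differences of -0.99, -0.96, -0.74, -1.90 and -1.32, and bird 6 had 0.77. The mean was -0.86 ± 0.89 (SD, n = 6) and did not pass (limma adjusted p = 0.177). Another, dimmer probe set gave -1.01 ± 1.18 (SD), again lower in 5 of 6 birds, and the last, below background in both eyes, gave 0.06. BMP4 differed by -0.30 ± 0.68 (SD; limma adjusted p = 0.66), with bird 3 at 0.62 and bird 6 at 0.33 on the other side of 0, and by -0.49 without bird 3. TGFB2 differed by 0.22 ± 0.48 (SD), and by 0.02 without bird 3.

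The 16 BMP antagonists had a median of 0.08, and 0.06 without bird 3. NOG and NBL1, another BMP-binding protein, were higher in every bird, 2 of 16 against 2.49% of all genes. NOG was itself called, which raises this share. Among 20 receptors, SMAD proteins and targets of BMPs, ATVR1, HEY1 and ID2 were higher in every bird, 15% beside 2.49% of all genes, but the median of 0.05 was -0.01 without bird 3. The 17 TGF-beta and activin genes had a median of 0.17, which was 0.04 without that bird.

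In the WNT pathway, RSPO2, a secreted enhancer of WNT signalling, was lower in 6 of 6 lens eyes. It lay between 6.74 and 7.46 in lens eyes and between 7.34 and 7.66 in control eyes, with a difference of -0.31 ± 0.23 (SD, n = 6; limma adjusted p = 0.107). APC, part of the complex that degrades beta-catenin, was lower in 6 of 6 birds by -0.36 ± 0.16 (SD; limma adjusted p = 0.131). The ligand WNT9A was higher in 5 of 6 birds, by 1.23 ± 1.26 (SD; limma adjusted p = 0.159). Its differences in birds 1 to 4 were between 1.34 and 2.90, with 0.11 and -0.54 in birds 5 and 6. The 51 WNT genes together had a median of 0.05. RSPO2 and APC were the members lower in every bird, 3.92% beside 5.08% of all genes. FZD7 was the 1 member higher in every bird, 1.96% beside 2.49%. IGF2 and FGF20 were higher in every bird, by 0.23 ± 0.17 and 0.16 ± 0.06 (SD, n = 6 each), and the mean signal of FGF20 was below background. Each was the 1 such member of its list, 7.14% of 14 IGF and insulin genes and 4.35% of 23 FGF genes, beside 2.49% of all genes.

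The remaining named genes that fell were EPHB6, TRAF3, SCAF11 and MYO3A. EPHB6, an ephrin receptor without kinase activity, read 3.54, 3.97 and 5.09 in lens eyes and 3.95, 4.36 and 5.78 in control eyes (lowest, median, highest). Its difference was -0.50 ± 0.08 (SE, n = 6; limma adjusted p = 0.0293), and -0.48 without bird 3. The brighter probe set of EPHB6 differed by -0.17 ± 0.13 (SD; limma adjusted p = 0.449), lower in 6 of 6. Of 16 genes of ephrins and their receptors, EPHA7 and EPHB6 were lower in every bird and EFNB1 and EPHB1 were higher (12.5% each, beside 5.08% and 2.49% of all genes). TRAF3, an adaptor of tumour necrosis factor receptors and of antiviral signalling, averaged 7.35 in lens eyes and 7.88 in control eyes, a difference of -0.52 ± 0.09 (SE, n = 6; limma adjusted p = 0.0434). Without bird 3 it was -0.52 and did not pass (limma adjusted p = 0.207). All 3 probe sets for TRAF3 were lower in 6 of 6 birds, the brightest by -0.34 (limma adjusted p = 0.185).

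SCAF11, a splicing factor, differed by -0.37 ± 0.07 (SE, n = 6; limma adjusted p = 0.0489), and by -0.36 without bird 3 (limma adjusted p = 0.236). Its brightest probe set differed by -0.22 ± 0.07 (SD; limma adjusted p = 0.117), lower in 6 of 6. MYO3A, an unconventional myosin of actin-rich protrusions with a kinase domain, differed by -0.42 ± 0.08 (SE, n = 6; limma adjusted p = 0.0489), and by -0.44 without bird 3 (limma adjusted p = 0.207). Bird 6 was the exception for MYO3A, at 0.09. The called probe set of MYO3A was dim, at 4.29, 4.59 and 5.66 in lens eyes and 4.64, 5.17 and 5.58 in control eyes (lowest, median, highest). Its brightest probe set, near 10, was lower in 6 of 6 birds by -0.41 ± 0.43 (SD), of which bird 5 gave -1.24. The last one, at 8.96 in lens eyes and 9.10 in control eyes, differed by -0.14 ± 0.38 (SD) and was lower in 3 of 6 birds. The 3 probe sets without a gene name differed by -0.46, -0.39 and -0.31, and without bird 3 by -0.49, -0.36 and -0.27 in the same order. Over the 12 named genes, 39 of their 41 probe sets had a mean below 0, beside 13239 of the 27168 probe sets that name 1 gene. The exceptions were the single probe set of NOG and 1 of UNC13A. The 41 include the called probe sets, whose direction was part of the call. The others read the same genes in the same eyes, so the count is no separate support.

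DUSP4, a phosphatase that inactivates MAP kinases, lay just outside the threshold. Its brightest probe set read 8.38, 8.46 and 8.69 in lens eyes and 8.64, 8.94 and 9.30 in control eyes (lowest, median, highest). Birds 1 to 4 and 6 had differences between -0.75 and -0.30, and bird 5 had 0.06. The mean was -0.43 ± 0.29 (SD, n = 6; limma adjusted p = 0.0595). Without bird 5 it was -0.53 and passed (limma adjusted p = 0.0212), whereas without bird 3 it was -0.37 and did not (limma adjusted p = 0.304). Of the 17 feedback inhibitors of MAP kinases measured, none was lower in every bird, beside 5.08% of all genes. DUSP7 was higher in every bird, 5.88% beside 2.49% of all genes, and the median of the list was 0.03.

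BDNF, the neurotrophin that neural activity induces, was lower in 6 of 6 birds. It was the 1 such member of 28 neurotrophins and neurotrophic factors, 3.57% beside 5.08% of all genes. It ran from 7.35 to 7.79 in lens eyes and from 7.79 to 8.17 in control eyes, and it differed by -0.33 ± 0.17 (SD, n = 6; limma adjusted p = 0.109). Early response genes did not pass. EGR1, the chick ZENK transcription factor studied in amacrine cells, differed by -0.17 ± 0.33 (SD; limma adjusted p = 0.603), with 4 birds below 0 and 2 above. ARC, a protein of active synapses, differed by -0.37 ± 0.40 (SD; limma adjusted p = 0.398). Of 22 early response genes, EGR4 was lower in every bird and FOSL2 was higher in every bird, 4.55% each, beside 5.08% and 2.49% of all genes.

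Clock genes had small differences below 0. The median of 25 genes of the clock and of melatonin was -0.05, and it was below 0 in each of the 6 birds, between -0.05 and -0.0074 in the others and -0.23 in bird 3. Without bird 3 it was -0.02. CLOCK, CSNK1D, PER3 and TPH2 were lower in every bird, 4 of 25 beside 5.08% of all genes, and none was higher in every bird. PER3, a repressor of the clock loop, differed by -0.33 ± 0.28 (SD, n = 6; limma adjusted p = 0.132) and CLOCK, its activator, by -0.22 ± 0.14 (SD; limma adjusted p = 0.163). PER2, which light induces, differed by -0.26 ± 0.56 (SD) and CRY1 by -0.02 ± 0.08 (SD), which was 0.0066 without bird 3.

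Melanopsins, the light sensors of ganglion and other inner retinal cells, were lower in most lens eyes. OPN4-1 was lower in 6 of 6, at -0.35 ± 0.26 (SD, n = 6; limma adjusted p = 0.114). OPN4 was lower in 5 of 6, at -0.38 ± 0.28 (SD; limma adjusted p = 0.172). The median of the 10 non-visual opsin genes was 0.03, and 0.01 without bird 3. OPN4-1 was the 1 member lower in every bird, 10% beside 5.08% of all genes. Tyrosine hydroxylase (TH), which limits dopamine synthesis, was near background and differed by -0.08 ± 0.29 (SD), and by 0.02 without bird 3. NOS1 differed by -0.05 ± 0.17 (SD), and the retinoic acid enzyme ALDH1A2 by 0.85 ± 2.54 (SD). ALDH1A2 was at 4.84 in bird 3 and -2.68 in bird 5, and its mean without bird 3 was 0.05.

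Phototransduction genes showed no member that passed. Over 11 cone genes the median was 0.02 with bird 3 and 0.08 without it, and over 15 rod genes it was 0.01 and 0.05. OPN1LW, the red-cone opsin, ran from 12.6 to 13.0 in lens eyes and from 12.4 to 13.0 in control eyes. No cone or rod gene had the same sign in every bird. Structural and ciliary genes of photoreceptors had a median of -0.03 over 37 genes, and 9 of them had an unadjusted p under 0.05 in the lower direction, against 6.4% of all genes. IFT88, MYO3A, MYO3B and RPGR were lower in every bird, 10.8% beside 5.08% of all genes, and ESPN was higher in every bird, 2.7% beside 2.49%. RPGR, a regulator at the connecting cilium, differed by -0.48 ± 0.36 (SD, n = 6; limma adjusted p = 0.111) and by -0.40 without bird 3. Among 16 Muller glia genes, SLC1A3, the glial glutamate transporter, was lower in 6 of 6 birds by -0.15 ± 0.10 (SD; limma adjusted p = 0.437). It was the 1 such member, 6.25% of the list beside 5.08% of all genes.

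The lists of mitochondrial complex subunits and of ribosomes had small medians above 0. Of 64 subunits of oxidative phosphorylation, 8 were higher in every bird and none was lower, against 2.49% and 5.08% of all genes, and the median was 0.05 with bird 3 and 0.04 without it. NDUFS6, a subunit of complex I, ran from 12.4 to 12.6 in lens eyes and from 12.3 to 12.5 in control eyes, a difference of 0.09 ± 0.05 (SD, n = 6; limma adjusted p = 0.411). Of 67 mitochondrial ribosome genes, 8 were higher in every bird and none lower, with a median of 0.06. Of 67 cytosolic ribosomal proteins, 66 had a mean above 0, beside 7126 of all 13009 genes, and 8 were higher in every bird. Without bird 3, 62 had a mean above 0, beside 7226 of all genes. The medians of the oxidative phosphorylation, mitochondrial ribosome and cytosolic ribosome lists were above 0 in 4, 5 and 5 of the 6 birds. RPS29 differed by 0.07 ± 0.04 and RPS28 by 0.22 ± 0.14 (SD, n = 6 each). No member of these 3 families passed the test.

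Chromatin regulators and motor proteins had medians below 0. Of 77 chromatin regulators, BAZ1A, CHD7, KDM3B, SMARCAL1, SMARCD3, TET1 and WHSC1 were lower in every bird, 9.09% beside 5.08% of all genes, and none was higher in every bird, beside 2.49%. TET1, which oxidises methylcytosine, ran from 10.2 to 11.1 in lens eyes and from 10.6 to 11.3 in control eyes and differed by -0.28 ± 0.11 (SD, n = 6; limma adjusted p = 0.0595). It was -0.25 without bird 3. The median of the chromatin list was -0.04, and 0.01 without bird 3, when 38 members were below 0 and 39 above it. Of 48 motor proteins, DYNC1LI1, KIF13A, KIF13B, KIF21A and KIF2A were lower in every bird, 10.4% beside 5.08% of all genes, and the median of the list of -0.04 was -0.04 without bird 3 as well. KIF21A, a kinesin of axons, differed by -0.35 ± 0.29 (SD; limma adjusted p = 0.17).

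The share of probe sets lower in every bird also varied with brightness. It was 1.73% in the dimmest of 5 equal groups, and 3.01%, 5.55%, 8.87% and 7.6% in the brighter ones. The share higher in every bird was 1.27% in the dimmest and 2.68% in the brightest. A family of bright genes therefore starts from another background than a family of dim ones. The motor list, near 8 in median signal, and the chromatin list, between 9.32 and 9.88, had shares lower in every bird close to those of the brighter groups. The same holds for the list of photoreceptor structure and cilium, between 8.98 and 9.41, at 10.8%. It also holds for synaptic adhesion, between 9.46 and 9.925, at 10%.

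The medians furthest from 0 were those of the lens and anterior segment, vessel, interferon response and white blood cell lists, and all of these but the lens list were under 0.1 without bird 3. The 23 blood vessel genes had a median of 0.70, and 0.08 without it. The 31 interferon response genes had 0.35 and 0.08, the 31 white blood cell genes 0.29 and 0.02, the 28 genes of choroid, sclera and stroma 0.23 and 0.05, and the 26 genes of pigment epithelium 0.18 and 0.01. No gene of the vessel, white blood cell, or choroid lists had the same sign in every bird. The 21 lens and anterior segment genes had a median of -1.08, and of -1.03 without bird 3, since bird 5 was at -5.25. ASL1, the delta-crystallin gene, differed by -2.52 ± 3.52 (SD, n = 6; limma adjusted p = 0.488), with birds 3 and 5 at -5.40 and -8.37 and the others between -0.89 and 0.00.

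Across the 61 lists examined, 29 medians were below 0 and 32 above it. Without bird 3 the counts were 20 and 41, and 17 lists changed sign. Bird 3 had the largest median of the 6 birds, in either direction, in 43 lists and bird 5 in 14. The medians of phosphodiesterases, clock genes and motor proteins were below 0 in each bird, and no list was above 0 in each. Without bird 3, 873 genes (6.71%) were lower in every one of the 5 remaining birds and 739 (5.68%) were higher, so the excess of lower over higher genes was smaller there.

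**Figure D4:**
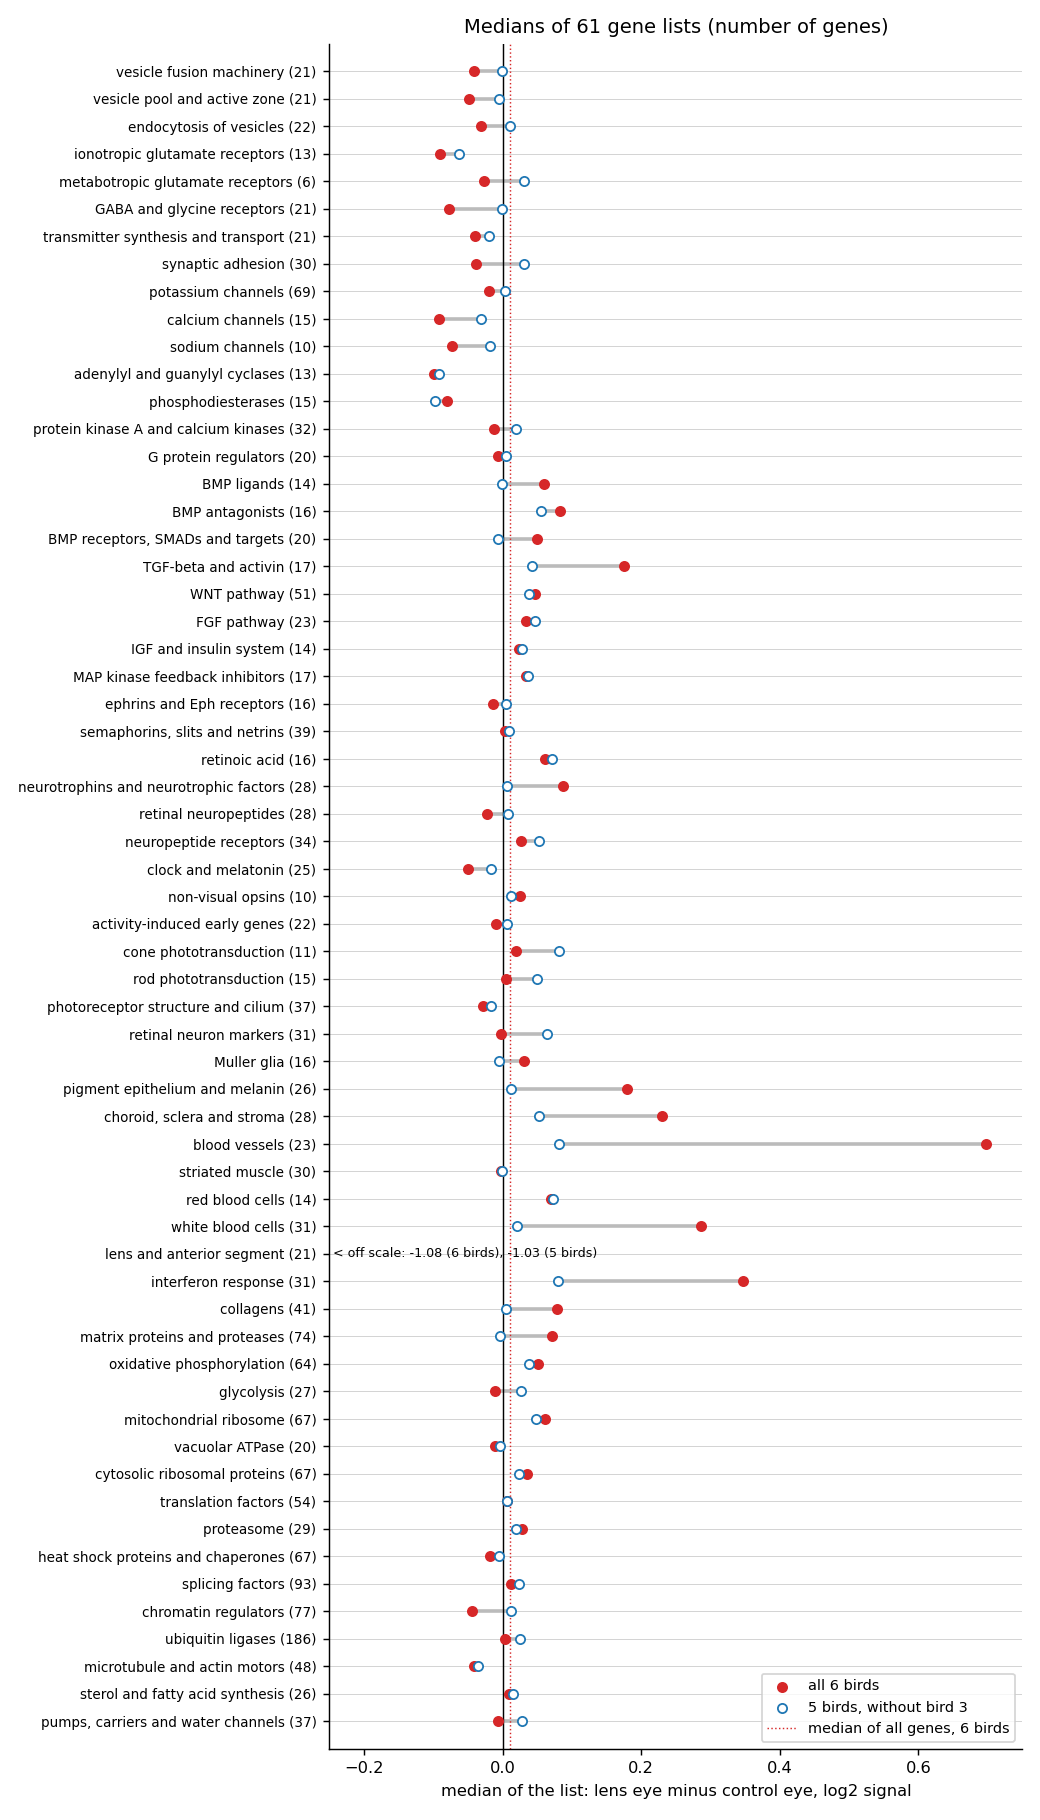
Median lens-minus-control difference in log2 signal (horizontal axis) of 61 gene lists (rows, with the number of genes), as a filled red point over all 6 birds and an open blue point over the 5 birds without bird 3. The lens and anterior segment list lies off the scale, with its values written in its row. The largest shifts between the 2 points are those of blood vessels (0.70 and 0.08), interferon response and white blood cells, while phosphodiesterases, cyclases and the ribosome lists keep their side of 0.

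The -15 D response at 6 hours was next set against the opposite lens at the same time and the same lens at 3 days, in birds that do not overlap. For the test of the difference between -15 D and +15 D at 6 hours, no probe set passed, and 1362 (3.55%) had an unadjusted p under 0.05. Of the 15 probe sets called for -15 D, 14 had the same sign under +15 D, with a median size of 0.51 under -15 D and of 0.19 under +15 D. These probe sets were chosen for their size under -15 D, so smaller sizes in another condition follow in part from the choice and are no result. The share of all probe sets with the same sign under both lenses was not counted, so the 14 have no background to be read against. VIP was lower in 6 of 6 birds under both lenses, by -0.73 ± 0.32 under -15 D and by -0.46 ± 0.19 under +15 D (SD, n = 6 each; limma adjusted p of the difference = 0.985). NOG differed by 0.76 ± 0.47 under -15 D and by 0.14 ± 0.21 under +15 D. The called probe set of ADCY1, whose mean over all arrays is below background, differed by -0.65 ± 0.33 and -0.02 ± 0.29. Its brightest probe set differed by -0.40 ± 0.34 and -0.12 ± 0.21 (SD, n = 6 each), again with limma adjusted p = 0.985 for each difference. For PDE3A, the called probe set differed by -0.51 ± 0.16 under -15 D and -0.18 ± 0.29 under +15 D, and the brighter one by -0.31 ± 0.06 and -0.36 ± 0.16 (SD, n = 6 each).

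For BMP2, which is described for the RPE of chicks under both lens signs, the means lay on opposite sides of 0. It differed by -0.86 ± 0.89 under -15 D and by 0.52 ± 0.58 under +15 D, where 5 of 6 birds were above 0 (SD, n = 6 each; limma adjusted p of the difference = 0.985). RSPO2 and DUSP4 were lower under both lenses. RSPO2 differed by -0.31 ± 0.23 under -15 D and by -0.51 ± 0.21 under +15 D, and DUSP4 by -0.43 ± 0.29 and -0.52 ± 0.07 (SD, n = 6 each). Both passed under +15 D (limma adjusted p = 0.0343 each), and neither passed under -15 D at 6 hours (limma adjusted p = 0.107 and 0.0595). DUSP4 also passed after 3 days of -15 D, at -0.62 ± 0.16 (SD, n = 6; limma adjusted p = 0.0025). Across the 13009 genes the mean differences of the 2 lenses had a Pearson r of 0.21, and of 0.33 without bird 3, as a description over genes that share arrays. For -15 D at 6 hours and at 3 days, r was 0.37, and 0.13 without bird 3. Which of these conditions had the higher r thus depended on bird 3.

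Between 6 hours and 3 days of -15 D, 4 of 38382 probe sets (0.0104%) differed by the test. The called, dimmer probe set of EPHB6 stood at -0.50 ± 0.26 at 6 hours and 0.25 ± 0.17 at 3 days, with all birds on opposite sides of 0 (SD, n = 6 each; difference -0.75, limma adjusted p = 0.0261). The brighter probe set of EPHB6 had no such reversal. It stood at -0.17 ± 0.13 at 6 hours and -0.04 ± 0.06 at 3 days (SD, n = 6 each; difference -0.13, limma adjusted p = 0.746). The unnamed probe set that was called at -0.46 after 6 hours had the pattern of the dimmer EPHB6 probe set, with a difference of -0.67 (limma adjusted p = 0.0418). RNF149, a membrane-bound ubiquitin ligase, differed by 0.10 ± 0.21 at 6 hours and by -0.52 ± 0.12 at 3 days, when it was lower in 6 of 6 birds (SD, n = 6 each; difference 0.62, limma adjusted p = 0.0121). The remaining one, which has no gene name either and was not called at 6 hours, had a difference of -0.54 (limma adjusted p = 0.0423). Without bird 3 the count was 1, and it was 0 without bird 6, 1 without bird 5 and 2 without any of birds 1, 2 and 4.

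Of the 15 probe sets called at 6 hours, 9 had the same sign at 3 days, with a median size of 0.04 when turned to the sign at 6 hours, again for probe sets chosen at 6 hours. For this count, too, the share over all probe sets was not taken. VIP was at -0.73 ± 0.32 after 6 hours and -0.08 ± 0.07 after 3 days, and GRM5 at -0.51 ± 0.20 and 0.09 ± 0.19 (SD, n = 6 each). The test of the difference did not pass for either (limma adjusted p = 0.246 for both). At 3 days NOG, the called probe set of PDE3A and BMP2 had the sign of their 6-hour mean in all birds. NOG was at 0.47 ± 0.23, PDE3A at -0.34 ± 0.23 and BMP2 at -1.15 ± 0.55 (SD, n = 6 each), and none of them passed at 3 days (limma adjusted p = 0.108, 0.0863 and 0.0655).

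**Figure D5:**
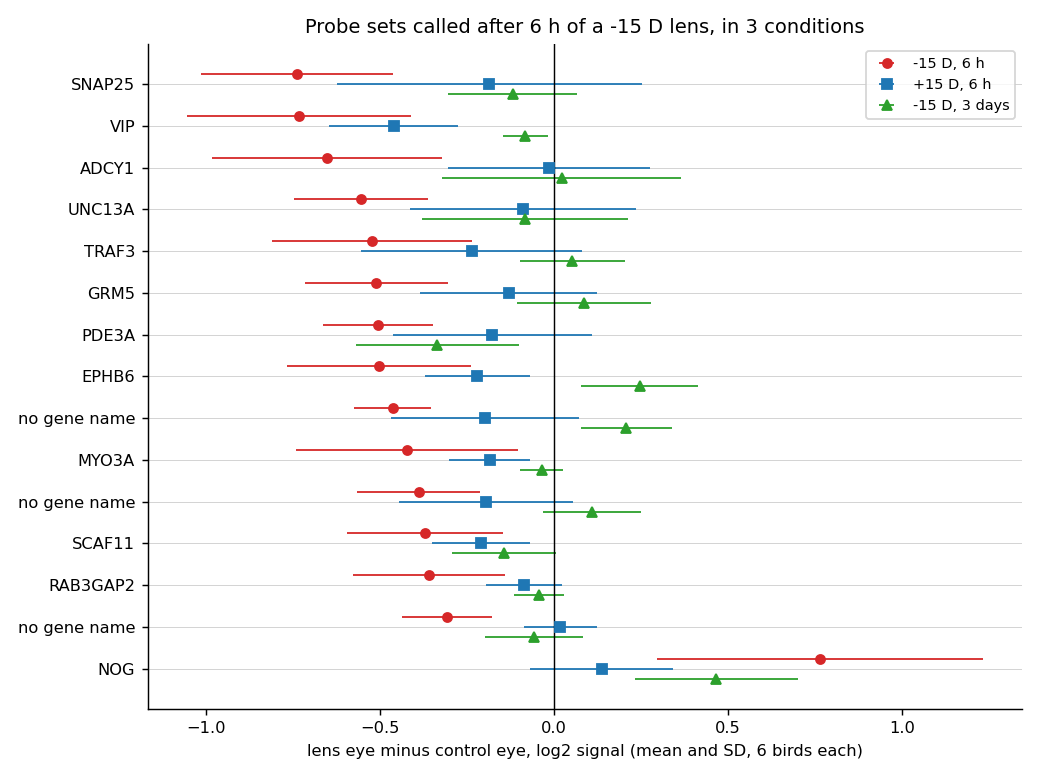
Lens-minus-control difference in log2 signal (horizontal axis, mean with SD over 6 birds) of the 15 probe sets called after 6 hours of -15 D, in that condition (red circles), after 6 hours of +15 D (blue squares) and after 3 days of -15 D (green triangles). The rows were chosen by the red values, so their distance from 0 follows in part from that choice. In these rows 14 blue points lie on the same side as the red, a count without the share over all probe sets beside it. The called, dimmer probe set of EPHB6 is at -0.50, -0.22 and 0.25 in the 3 conditions, and its brighter probe set is not shown.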

How the data were processed

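RNA of retina with RPE was hybridised, 1 array per eye, after amplification from 100 ng of total RNA, per the labels' protocols. The authors deposited log2 signals per probe set, made with RMA (background correction, normalization of all arrays to one distribution, probe summary), per the submitters' processing notes, which name Partek as well. No version or setting was found in the sources used here. Because RMA equalises the arrays, a displacement common to most genes is removed, and differences of dim signals are compressed. The number of arrays limits the precision.

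From these values, 153 control probe sets were removed and 38382 were tested without a filter. The platform annotation names 1 gene for 27168 of them, several for 177 and none for 11037. A gene stands by its brightest probe set over all 48 arrays in lists, whichever probe set was called. Within-bird differences of all 24 birds were fitted with limma 3.58.1 (lmFit, eBayes, R 4.3.3; 20 residual degrees of freedom), so the 4 conditions share 1 estimate of the spread. P values are two-sided, adjusted by Benjamini-Hochberg over all probe sets, with a threshold of 0.05. The bird is the replicate block, since both eyes belong to 1 animal. As a check, the deviations of both eyes from their group means correlated above 0.1 in 20 of 24 birds, and in this condition at 0.67, 0.42, 0.05, 0.40, -0.23 and 0.72 in birds 1 to 6.

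The 61 gene lists, the markers and the members were chosen with earlier results of these data known, so no list was tested. Called genes stay in the counts of their lists and can raise those shares. Named are all probe sets called, up to 3 genes of lowest p per list, 17 genes studied in chick eye growth and the 10 genes that differed most in each direction in bird 3, and further list members by their sign in every bird. SE comes from the fit and SD from the birds of a condition. The fit was tried on simulated differences with independent noise of the same spread in every bird. The wider spread of bird 3 was not part of that trial. No sequence was available for the probe sets or genes, and none is shown.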

Additional observations from a re-analysis of the deposited data

Results flagged for a closer look

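Of 95 sets of 6 birds that were examined (the called and the eye-growth genes, the list medians and the actin and GAPDH ratios), 22 had a single bird far from the rest by Dixon's criterion for 6 values. Chance alone would set 1 bird apart in about 1 of 20 such sets if all birds had the same spread. Here the SD over genes ran from 0.19 to 0.76 between birds, so that rate is no measure for this count. Bird 3 was the far one in 18 of the 22, bird 5 in 3 and bird 6 in 1. Bird 3 had been singled out beforehand because its 2 eyes differ widely, so its share restates that choice. The sets overlap in their birds and partly in their genes, so they are not independent.

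In bird 3 the lens eye was far above the others for NOG, at 1.67 where the others lay between 0.40 and 0.76, and for TGFB2, at 1.18 where the others lay between -0.03 and 0.10. Its list medians were high for white blood cells at 1.50, TGF-beta and activin at 0.75, collagens at 0.68, BMP antagonists at 0.39, matrix proteins and proteases at 0.32 and BMP receptors, SMADs and targets at 0.20. They were low for ionotropic glutamate receptors at -0.58, GABA and glycine receptors at -0.47, metabotropic glutamate receptors at -0.45, synaptic adhesion at -0.44, the vesicle pool at -0.32, vesicle fusion at -0.28, endocytosis at -0.25, the clock at -0.23, pumps and carriers at -0.22 and protein kinase A and calcium kinases at -0.20. The mean difference over the vessel list in the same bird was 3.47 and its median 4.08, and the mean over the lens list was -1.82 and its median -0.82. Their part in these medians was not tested.

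Bird 5 was far below the others for UNC13A, at -0.92 where the others lay between -0.56 and -0.36, and for the lens and anterior segment list, at -5.25 where the others lay between -0.82 and 0.07. It was above them for the striated muscle list, at 0.18. Bird 6 was apart for the unnamed probe set called at -0.39, at -0.043 where the others lay between -0.54 and -0.39.

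A test of the difference itself set 4 probe sets apart between 6 hours and 3 days of the -15 D lens. The 6-hour minus 3-day difference was 0.62 for RNF149, -0.75 for EPHB6, and -0.67 and -0.54 for the other two, which have no gene name.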

How the results depend on the processing

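The count of 15 probe sets called after 6 hours of -15 D lay between 0 and 16 when 1 of birds 1 to 6 was left out in turn, with 0 without replicate 3 (bird 3), and was 1 without replicates 3 and 5 together. With no replicate block, that is with the eyes unpaired, it was 0, with 989 at unadjusted p under 0.05, and VIP kept its difference of -0.73 (adjusted p = 0.9999). It was 70 (69 lower) among the 30086 probe sets above background, 296 (277 lower) with array weights, 17 with centred arrays, 10 with an intensity trend and 21 with robust variances. It was 0 when only the 6 birds gave the spread, with 3636 at unadjusted p under 0.05. Chosen after seeing the data, the 5 birds without bird 3 alone gave 0 (3799 unadjusted), the vessel and lens covariates 1 and the actin covariate 1. VIP was called under 13 of 17 settings, with differences between -0.82 and -0.65. For the difference between -15 D at 6 hours and at 3 days, the count of 4 lay between 0 and 2 with 1 bird left out, was 1 without replicates 3 and 5, 0 with no replicate block (1075 unadjusted) and 387 with array weights (229 higher). For the difference between -15 D and +15 D at 6 hours the count was 0 under each of its alternatives, with 1362 at unadjusted p under 0.05 in the fit reported. DUSP4, PDE3A and ADCY1 (brightest probe sets) and TET1 were also called above background and with array weights. Of 190 named values that did not pass, 21 results under another setting passed and 13 of 3222 changed sign. List medians changed sign in 52 of 549 results, 17 of them without bird 3. Where a count moved, the cause was not tested. Signals near background limit the calls for ADCY1, UNC13A, GRM5, EPHB6 and MYO3A.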
